A study of Rattus norvegicus with 1 sample.

Results

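The regions described here are the autosomal stretches in which the control DNA of the Pax8 ChIP-Seq study left no tag. The autosomes 1 to 20 of the rat genome build rn4 were divided into 10 kb bins, from position 0 to the last tag of each chromosome, and a bin was a member where it held no 5′ end of an aligned tag. Of 255819 bins, 15454 had 0 tags, or 6.04% (exact binomial 95% interval 5.95% to 6.13%). They added up to 154.54 Mb. The members were chosen by their own tag count, so their number and emptiness are given as a description, without a test.

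The library held DNA of PCCl3 cells, a rat thyroid follicular line that keeps differentiated functions of the thyrocyte, as the background for a search of Pax8 binding. The cells were grown in medium with serum and a hormone mixture that included TSH and were fixed with formaldehyde. The labels name the sample input DNA, with no antibody. The methods of the study keep apart an input, taken ahead of sonication, and a non-immunoprecipitated (non-IP) DNA, taken after sonication and ahead of the immunoprecipitation, and they give the input a part in normalization while describing library preparation for the IP and non-IP DNAs. The label and the methods thus differ. The study describes ChIP-Seq of IP and non-IP conditions, and its peak calling took the non-IP DNA as the control. The tag number of this library equals the number of filtered reads given there for the control. By that description the library holds the non-IP DNA, although its label names input DNA. There was 1 group with 1 library of 6714002 tags of 50 bp, of which 6473050 lay on the autosomes at 5775672 distinct positions and strands. No error between replicates could be given, and the intervals cover counting error only. Empty bins lay in runs, so bins were not independent and the binomial intervals were too narrow.

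Control DNA of either kind is not selected for any protein, so that every stretch of the assembly to which short reads can be aligned should collect tags in proportion to its copy number and to its recovery in the library. A reference assembly also holds stretches of unknown bases, to which no read can be aligned, and repeats, where a short read may have several equally good places. Peak callers such as MACS compare the immunoprecipitated DNA with this control, and a region without control tags gives them no local background. The assembly gaps, repeats and genes of rn4 at the empty bins, and their sequence, were not analysed here.

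In order to find out how many empty bins counting alone would give, the density around each bin was taken from the nearest 10 occupied bins on each side. An occupied bin held 24.0 distinct tags on average and 19 at the median. Poisson counting at the local density gave 148 empty bins, or 0.0578% of all bins. The observed number was 105 times as high. The ratio depended on how counts were taken to vary, and with a negative binomial spread about the local mean the expected number was 379 and the ratio 40.8. With empty bins kept in the local mean it was 2331, still below the observed number, although this mean is lowered by the empty bins themselves, most of all inside the longest runs. Empty bins lay in surroundings only a little sparser than the rest. The local density had a median of 16.7 distinct tags per bin around empty bins, with 10.9 and 26.3 as the 25th and 75th percentiles, and of 19.7 around all bins.

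Both the observed and the expected share of empty bins fell with the local density, as the plot by density class shows, and the ratio of observed to expected numbers rose. Where the local density was under 2 distinct tags per bin, 172 of 301 bins were empty against 87.2 expected, a ratio of 1.97. From 2 to under 5 tags, 391 bins were empty against 41.3 expected. From 5 to under 10 tags the numbers were 2622 and 18.7, and from 10 to under 20 tags they were 6064 and 0.635. In the densest class, with 20 or more tags per bin, counting gave an expected number of 1.2e-05, while 6205 of 125928 bins were empty. This class and the one before it held 40.2% and 39.2% of all empty bins, against 49.2% and 38.9% of all bins. The sparsest class, where both numbers were nearest to each other, held 1.11% of the empty bins, against 0.118% of all bins.

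**Figure D1:**
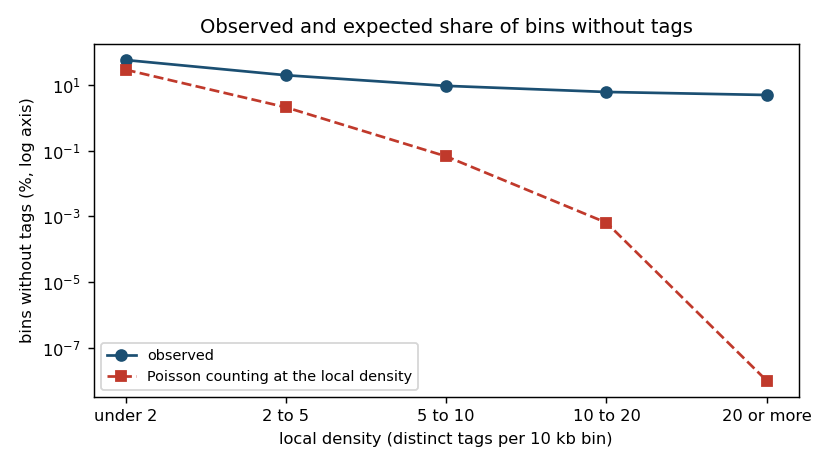
Share of autosomal 10 kb bins without tags (percent, log axis) in 5 classes of local density (distinct tags per bin). The observed share went from 57.1% to 4.93%, and the share expected from Poisson counting went from 29.0% to 9.9e-09%.

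The bins just outside the threshold were also more numerous than counting gave, by a smaller factor. There were 2363 bins with 1 distinct tag against 370 expected and 2646 bins with 2 against 750 expected. At 5 distinct tags the numbers were 4893 and 3501. Of the bins with 1 tag, 34.2% lay beside an empty bin, against 22.4% of those with 2 tags, 9.50% of those with 5 tags and 3.58% of all occupied bins. In 131 cases a bin with 1 tag separated 2 empty bins. In bins beside an empty one, the tag-free stretch reached into the bin by construction. Whether that or sparse surroundings gave their low counts was not tested.

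The most sparsely tagged surroundings lay mainly in 4 places. Of the 301 bins with a local density under 2, 188 were on chromosome 7, 86 on chromosome 17, 26 on chromosome 2 and 1 on chromosome 1. On chromosome 7 they formed stretches from 4010001 to 5210000 and from 5400001 to 6060000. In the former, 61 of 120 bins were empty against 34.04 expected, and the remaining ones held 102 distinct tags in all. In the latter, 39 of 66 bins were empty against 15.8 expected. The stretch of chromosome 17 from 67350001 to 68210000 had 56 empty bins of 86, against 30.7 expected, in 17 runs. In the stretch of chromosome 2 from 86930001 to 87190000, 15 of 26 bins were empty. Empty bins lay among bins with few tags in these 4 stretches, and their longest runs measured 120, 80, 150 and 50 kb in the order given. Of the 172 empty bins of this density class, 84 were in runs of 5 or more.

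Empty bins were arranged in 4446 runs. Single bins made up 2319 of the runs, but only 15.0% of the empty bins. The remaining 13135 bins, or 85.0% (exact binomial 95% interval 84.4% to 85.6%), were in 2127 runs of 2 or more, where the product of the local Poisson probabilities gave 20.1 such runs. Runs of 2 to 4 bins held 24.0% of the empty bins, runs of 5 to 9 bins 17.04%, runs of 10 to 19 bins 21.4% and runs of 20 to 49 bins 19.2%. The 9 runs of 50 or more bins held 3.38%. Runs of 5 or more bins, called long here, numbered 764, had a median of 9 bins and covered 94.2 Mb, or 61.0% of the empty bins.

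The number of runs did not fall steadily with length. There were 730 runs of 2 bins, 277 of 3, 356 of 4 and 156 of 5. At the long end there were 12 runs of exactly 49 bins on 11 chromosomes, against 4 runs in all from 39 to 48 bins. Both steps could be followed without bins in the intervals between the 5′ ends of neighbouring tags. Neighbouring autosomal tags were 170 bp apart at the median, 8021 intervals reached 10 kb and 1023 reached 50 kb.

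Tag-free intervals had a sharp excess just above 50 kb. The classes of 1 kb from 40 to 50 kb held between 10 and 28 intervals each, with 10 in the last of them. The class from 50 to 51 kb held 144. The next classes held 61 and 32 intervals, and the class from 59 to 60 kb held 13. Within the class of 50 to 51 kb, the median interval exceeded 50 kb by 521 bp, and intervals of this class occurred on all 20 autosomes. Of the 144, 134 spanned 4 whole empty bins, so that most of them stayed below the limit of a long run. A like step stood at 500 kb. Of intervals from 450 to 500 kb there was 1, whereas 11 intervals on 10 chromosomes measured from 500 to 503 kb, and 10 were longer than that. These classes were chosen after the values were seen.

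**Figure D2:**
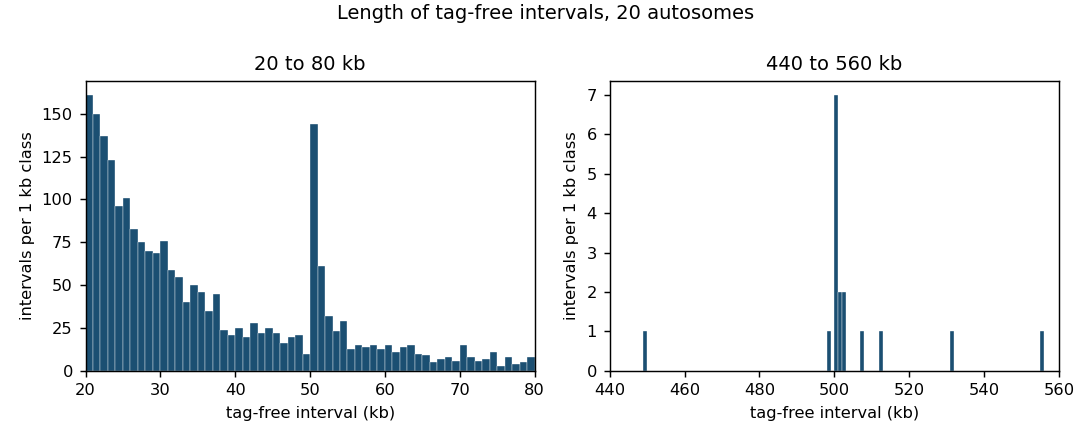
Number of tag-free intervals between neighbouring 5′ ends per 1 kb class (y axis) against interval length in kb (x axis) on the 20 autosomes, with 20 to 80 kb on the left and 440 to 560 kb on the right. The class of 50 to 51 kb held 144 intervals and that of 49 to 50 kb held 10, and 7 intervals fell in the class of 500 to 501 kb.

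The same intervals were then counted in sequences that the autosomal classes had not used. Chromosome X had 18 intervals from 40 to 50 kb and 32 from 50 to 60 kb, and the increase was not as sharp as on the autosomes. The class of 49 to 50 kb held 4 of them, that of 50 to 51 kb held 3 and that of 51 to 52 kb held 7. The autosomes had 209 and 359 in the same ranges. The unplaced sequence had 32 and 70, with 4 intervals from 49 to 50 kb and 14 from 50 to 51 kb. From 450 to 500 kb chromosome X had 0 intervals, and it also had 0 in the range of 500 to 503 kb that described the autosomal step. In a wider range, from 500 to 510 kb, it had 3. The median occupied bin of X held 6 distinct tags against 19 on the autosomes.

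Empty bins were present on each of the 20 autosomes, and their share ran from 3.99% to 9.02%. Chromosome 12 had the highest share, with 422 of 4679 bins (9.02%), followed by chromosome 15 with 936 of 10976 (8.53%) and chromosome 14 with 844 of 11220 (7.52%). The lowest shares were on chromosome 11, with 350 of 8775 bins (3.99%), chromosome 3, with 4.90%, and chromosome 13, with 4.92%. The exact binomial intervals were 8.21% to 9.88% for chromosome 12 and 3.59% to 4.42% for chromosome 11. They take bins as independent, while the empty bins of these chromosomes stood in only 102 and 135 runs, so that the order is given as a description and no chromosome is held to differ from its neighbours in it.

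The order of the chromosomes did not follow their density. Chromosome 12 held 31 distinct tags in its median occupied bin and chromosome 15 held 12, yet both were among the 3 highest shares. Chromosome 10, with the highest median of 33, had 607 empty bins of 11072 (5.48%), where counting at the local density gave 0.0190. On 13 chromosomes counting gave fewer than 2 empty bins. The ratio of observed to expected was lowest on chromosome 7, at 14.0, where 56.2 of the 789 empty bins were expected, and it was 19.6 on chromosome 17 and 37.4 on chromosome 15. These 3 chromosomes held 115 of the 148 bins expected in all.

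**Figure D3:**
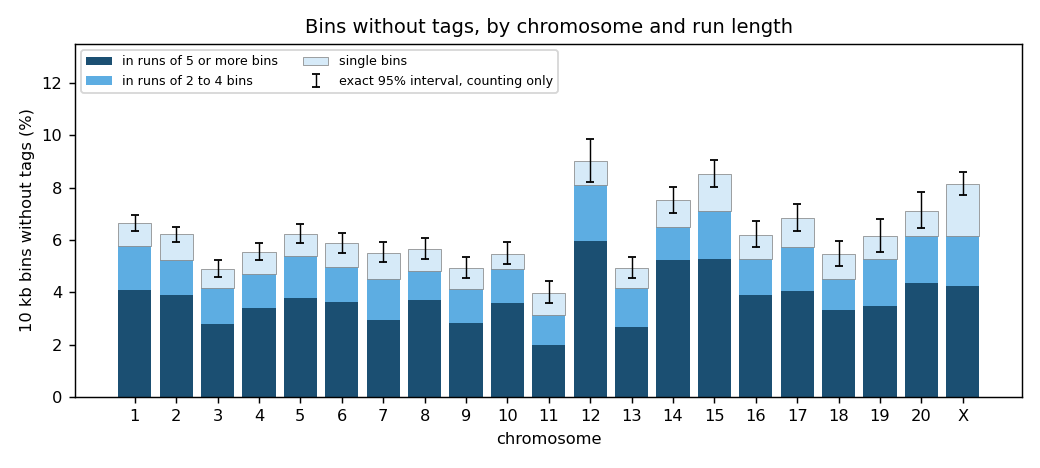
Percent of 10 kb bins without tags on each autosome and on X, divided by run length, with exact binomial 95% intervals of the total (counting error only). Chromosome 12 was highest at 9.02% and chromosome 11 lowest at 3.99%, and single bins took a larger part of X than of the autosomes.

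Long runs followed a similar order. Chromosome 12 had 26 of them, or 55.6 per 100 Mb, and they took 5.96% of its bins. Chromosome 15 had 44.6 long runs per 100 Mb and chromosome 14 had 39.2. The lowest number was 19.8 per 100 Mb on chromosome 13, and the lowest share of bins was 1.99% on chromosome 11. The longest run of each chromosome measured from 150 kb on chromosome 11 to 730 kb on chromosome 1, and on 7 chromosomes it measured exactly 490 kb. On 18 of the 20 it reached 300 kb.

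Chromosome X, the sparsest of the assembled chromosomes, was set beside the autosomes. It had 1311 empty bins of 16070, or 8.16%, against 55.3 expected from its local density. Its 321 single bins were 24.5% of its empty bins, against 15.0% on the autosomes, and its 59 long runs took 4.24% of its bins, within the range of the autosomes. The unplaced sequence had 2313 empty bins of 7574, or 30.5%, and the mitochondrial genome had 0 of 2.

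The low-density parts of chromosomes 15, 17 and 18 were looked at in the same way. On chromosome 15 the bins from 53 Mb to the end held 7 distinct tags at the median and 5.58% of them were empty, whereas the bins before held 23 tags and 11.7% were empty. Long runs took 2.80% of the former and 7.91% of the latter. On chromosome 17 from 50 Mb to the end the median was 10 tags and 8.46% were empty, against 25 tags and 5.34% in the remaining bins, and long runs took 4.86% and 3.26%. On the first 34 Mb of chromosome 18 the median was also 10 tags, and 204 of 3400 bins were empty, against 274 of 5327 in the remaining bins, while long runs took 2.97% and 3.55%. The share of empty bins was thus lower in the sparse part of chromosome 15 and higher in those of chromosomes 17 and 18, and the share in long runs was lower in the sparse parts of chromosomes 15 and 18.

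The 10 longest runs measured from 490 to 730 kb and covered 5.72 Mb, or 3.70% of the empty bins. The longest was on chromosome 1 from 68180001 to 68910000. The last tag ahead of it had its 5′ end at 68178184 and the first one behind it at 68919959, an interval of 741775 bp. Beyond the nearest bin, the next 9 occupied bins on its left held 36.6 distinct tags on average, and those on its right held 13.4, where the chromosome median was 22. Chromosome 1 had another 2 of these runs. One lay from 178320001 to 178910000 (590 kb), between 27.2 and 18.6 tags per bin. The other lay from 121520001 to 122040000 (520 kb), between 24.1 and 27.7 tags per bin.

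The run on chromosome 14 from 91560001 to 92190000 measured 630 kb, and its sides held 11.1 and 12.3 tags per bin against a chromosome median of 17. On chromosome 2 a run of 590 kb lay from 9020001 to 9610000, with the bounding 5′ ends at 9016060 and 9610975 and with 15.0 and 19.3 tags per bin beside it. Chromosome 18 had a run of 570 kb from 51140001 to 51710000, chromosome 6 a run of 550 kb from 27600001 to 28150000 and chromosome 4 a run of 540 kb from 99250001 to 99790000. These were the longest runs of their chromosomes.

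The run of chromosome 15 from 31190001 to 31700000 (510 kb) was the one in the sparsest surroundings, with 4.00 tags per bin on its left and 12.6 on its right. The 10th in the order was a run of 490 kb on chromosome 2 from 29580001 to 30070000, which shared its length with 11 other runs and was taken by the order of chromosomes. It lay between 26.8 tags per bin on both sides, 1.67 times the chromosome median, and the 5′ ends that bounded it were 500127 bp apart. Over the 10 runs the sides held between 0.333 and 1.67 times the chromosome median, and 12 of the 20 sides were above it. The sides are means, however, and the mean of all occupied autosomal bins was itself 1.25 times the chromosome median. Their distance to the nearer chromosome end ran from 9.02 to 121.52 Mb, so that none was terminal.

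To describe the surroundings of all runs, occupied bins from the 2nd to the 10th beside an empty bin were compared with the median occupied bin of their chromosome. These 59728 bins, 24.8% of the occupied bins, held 0.941 times the chromosome median at their own median, with quartiles of 0.563 and 1.53. Bins from the 11th to the 20th were at 1.00, and bins more than 20 away from any empty bin were at 1.06. Under 0.5 times the chromosome median lay 18.8% of the bins 2 to 10 away, or 11226 bins, against 16.4% of all occupied bins.

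The flank was also taken by the length of the run, with distances counted from runs of that length alone. A bin could then stand in several classes, and bins next to a run of another length were included, so these shares are not parts of the 18.8%. Beside single bins the median was 0.850 and 22.4% of the flanking bins lay under 0.5. Beside runs of 2 to 4 bins the values were 0.95 and 19.5%, and beside long runs they were 1.00 and 19.7%. The nearest bin on each side was at 0.471 times the chromosome median, and at 0.375 beside long runs. The tag-free stretch reached into that bin, which lowers its count by construction.

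Density was therefore also counted in 1 kb steps outward from the tag that bounded each run, leaving that tag out. These values are means over sides and take in any other empty bins within the steps. The mean of all autosomal bins, empty ones included, was 1.17 times the chromosome median. Beside long runs it was 1.27 times the chromosome median in the first kb, 1.04 in the second, 0.946 from 2 to 5 kb, 1.06 from 5 to 10 kb and 1.08 from 40 to 50 kb. Beside single bins it was 1.21 in the first kb, 0.967 in the second and 0.959 from 40 to 50 kb. The higher first step was also present behind every autosomal tag, with 2.36 times the chromosome median in the first kb, 1.88 in the second and 1.62 from 40 to 50 kb. Beyond the first kb each step beside both kinds of run lay below 1.17. Beside runs of 2 to 4 bins the same held except from 8 to 9 kb, at 1.18. Density beside long runs was lower from 2 to 5 kb than farther out. The bounding tag is by definition the last before the run, so that these steps say nothing of sequence inside it.

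**Figure D4:**
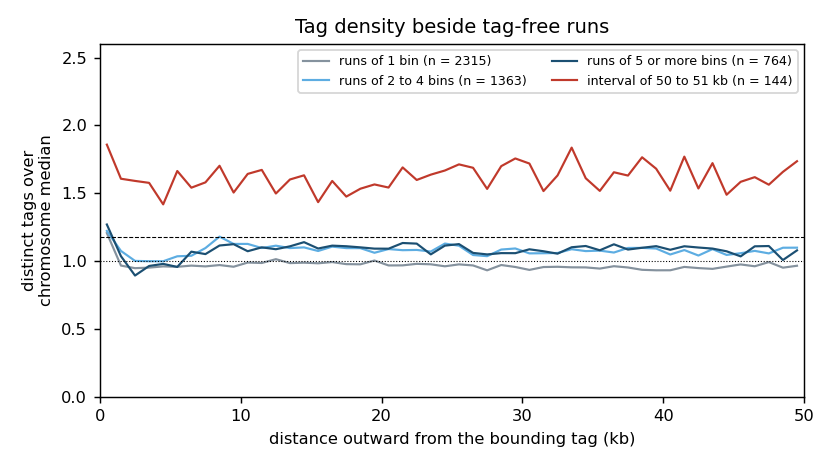
Distinct tags per kb divided by the chromosome median (y axis) in 1 kb steps outward from the bounding tags of tag-free runs (x axis, kb), as means over both sides of 2315 single bins, 1363 runs of 2 to 4 bins, 764 runs of 5 or more bins and 144 intervals of 50 to 51 kb. The dotted line marks the chromosome median and the dashed line the mean of all bins, empty ones included, 1.17. Beyond the first kb, the steps beside long runs lay between 0.894 and 1.14, and those of the 50 to 51 kb intervals lay above the dashed line.

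The intervals of 50 to 51 kb lay in denser surroundings than the runs in general, with 1.86 times the chromosome median in the first kb, 1.53 from 2 to 5 kb and 1.62 from 40 to 50 kb. The class is narrow, and its members were picked by the distance between bounding tags, which depends on the density beside them, so this difference is a description only.

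The strand of the bounding tags was counted at both edges of the intervals. Of the 1023 intervals of 50 kb or more, 44.6% were preceded by a plus-strand tag (exact binomial 95% interval 41.5% to 47.7%) and 55.3% were followed by one (52.2% to 58.4%), where 50.1% of all distinct autosomal tags were on the plus strand. Intervals of 10 to under 20 kb had nearly the same values, 44.8% and 54.5%. These shares moved with the place given to a tag. They were 48.1% and 51.6% when tags were placed at their midpoint and 52.7% and 48.3% when they were placed at their 3′ end. The imbalance was therefore not independent of the rule, which places tags by strand.

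Repeated tags, those beyond the first at a position and strand, were counted in the flanks as a measure outside the rule. They made up 10.69% of the tags in the bins 2 to 10 away (exact binomial 95% interval 10.64% to 10.74%), against 10.77% of all autosomal tags. Beside long runs the share was 11.06% (10.95% to 11.16%) and beside single bins 10.27% (10.20% to 10.34%), with the same overlap of classes. The share rises with density in this library, so bins of like density were compared. In bins with 1 to under 5 distinct tags it was 5.21% both in the flanks (exact binomial 95% interval 4.80% to 5.65%) and in the bins more than 20 away from any empty bin (4.84% to 5.61%). In bins with 5 to under 10 tags it was 5.82% (5.64% to 5.99%) in the flanks and 5.60% (5.47% to 5.74%) away from them. In these 2 classes the intervals overlapped. In the 3 denser classes the share was higher in the flanks and the intervals did not overlap. It was 6.45% (6.36% to 6.53%) against 6.25% (6.19% to 6.31%) in bins with 10 to under 20 tags. From 20 to under 40 tags it was 9.38% (9.31% to 9.46%) against 9.06% (9.01% to 9.11%). With 40 or more it was 14.97% (14.87% to 15.06%) against 14.78% (14.72% to 14.84%). Tags of a bin are not independent, so these intervals are also too narrow, and the differences could not be checked in another library.

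The empty bins were not concentrated at the chromosome ends. Within 2 Mb of an end lay 506 of them, or 3.27%, where 3.13% of all bins lay there. Of the outermost 1 Mb, 6.60% of the bins were empty. The share was 6.05% from 1 to 2 Mb, 7.18% from 2 to 5 Mb, 7.52% from 5 to 10 Mb, 5.67% from 10 to 20 Mb and 5.87% beyond. Long runs took 2.66% of the bins in the outermost 2 Mb and 4.00% from 2 to 5 Mb. They took 4.60% from 5 to 10 Mb, 3.17% from 10 to 20 Mb and 3.72% beyond. The first 2 Mb of the 20 chromosomes held 302 empty bins (7.55%) and the last 2 Mb held 204 (5.10%), with more in the first on 12 chromosomes. Chromosome 14 had the most in its first 2 Mb, 36, and chromosome 7 the most in its last 2 Mb, 32.

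**Figure D5:**
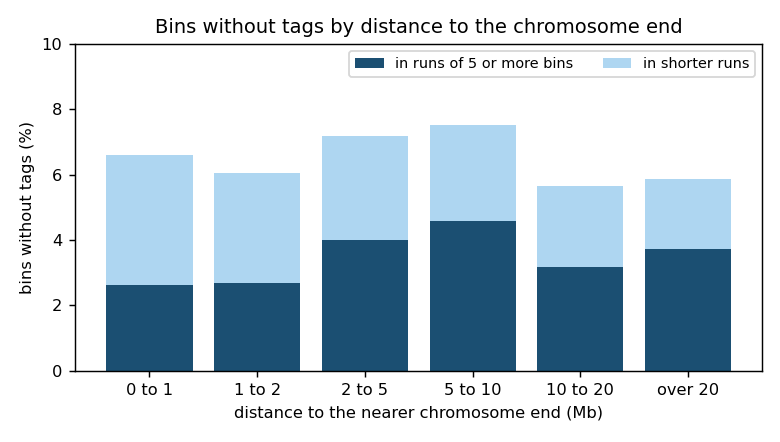
Percent of 10 kb bins without tags (y axis) by distance to position 0 or to the last tag of the chromosome, whichever was nearer (x axis, Mb), on the 20 autosomes, divided into long and shorter runs. The share was 6.60% in the outermost 1 Mb, highest at 7.52% from 5 to 10 Mb and 5.87% beyond 20 Mb.

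At the chromosome starts, 4 chromosomes, 3, 5, 12 and 14, began with an empty bin, and in each of them it was a single one. Their first tags lay at positions 15728, 15633, 10956 and 13339. On the remaining chromosomes the first tag lay between position 15, on chromosome 15, and position 5824, on chromosome 11. Since bins were counted to the last tag, no empty bin can stand at the other end.

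Along the chromosomes, empty bins were gathered in part of the stretches of 1 Mb. Of 2570 such stretches, 510 (19.8%) had none, and the median was 3 empty bins. More than 20 were found in 175 stretches, or 6.81%, which held 35.4% of the empty bins. The fullest was on chromosome 1 from 68000001 to 69000000, with 76 empty bins in 2 runs, and its occupied bins still held 29.7 distinct tags each. The stretch of chromosome 15 from 20000001 to 21000000 had 75 in 11 runs, and its occupied bins held 6.60 tags.

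The other 3 of the 5 fullest stretches had 62 empty bins each. On chromosome 7 from 5000001 to 6000000 they were divided into 23 runs, with 1.97 tags per occupied bin and 22.1 empty bins expected. On chromosome 15 from 28000001 to 29000000 they were in 10 runs, with 7.58 tags per occupied bin. On the same chromosome from 31000001 to 32000000 they were in 3 runs, with 14.0 tags per occupied bin. The longest runs of these 3 stretches had 11, 18 and 51 bins in the order given.

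Neighbouring runs were separated by 33 occupied bins at the median, and in 277 of 4426 cases (6.26%) by a single one. The longest stretch of consecutive occupied bins between runs had 565 bins.

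The library was also divided by strand, into parts of nearly equal size. With the tags of a single strand the empty bins rose by 2911 for the plus strand and by 2980 for the minus strand, to 18365 and 18434. Counting at the local density then gave 1009 and 993. Of the added bins, 76.9% and 76.5% were not beside any empty bin of the whole library. The rest lay beside one, a larger share than the 3.58% of all occupied bins that did. Long runs numbered 844 and 836 in these strands against 764 with all tags. At the depth of the whole library, an isolated empty bin in the sparsest surroundings cannot be told from counting alone. For each of the 10 longest runs the local density lay between 7.65 and 26.3 tags per bin.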

How the data were processed

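Reads of 50 bp were aligned by the authors to rat build rn4 with the MIRO pipeline, with 2 mismatches allowed, and deposited as a list of tag positions without any normalization. The version of the aligner and the treatment of reads with several places were not given in the sources used here, and both bear on which bins can hold tags. A track line was dropped, and tags per bin were counted from the list with the 5′ end as the place of a tag. A distinct tag was 1 per position and strand.

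The expected number was the sum over all bins of the Poisson probability of 0 at the local density, taken as the zero-truncated estimate from 10 occupied bins on each side. The script was tested on simulated data. Exact binomial 95% intervals were computed. Without a second library or group no test was made. The members, lists and measures were chosen with earlier results of these data known. Named were the 10 longest runs, the 3 chromosomes with the highest and lowest shares and the 5 fullest 1 Mb stretches, with the sparsest places and the interval classes added after their values were seen. Positions are 1-based. Python 3.11.15, numpy 2.4.6, pandas 2.3.3 and scipy 1.17.1 were used.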

Additional observations from a re-analysis of the deposited data

How the results depend on the processing

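The number of empty bins moved with the bin size by construction, to 47007 with 5 kb bins (9.19% of them) and 5494 with 20 kb bins (4.30%), and stayed within 1.5 times of 15454 in the other 6 alternatives. The expected number was 78.0 with 25 occupied bins on each side, 379 with a negative binomial spread and 0.00145 at the chromosome mean. It was 2331 with empty bins kept in the local mean, which lowers that mean inside the longest runs. Without chromosomes 7, 15 and 17, an alternative added after the data were seen, it was 32.6 against 13062 observed. The observed number was the higher one in each of these. Long runs numbered 353 at 10 or more bins and 1397 at 3 or more. Intervals of 50 kb or more between tags numbered 1023, or 879 without the class of 50 to 51 kb, also added later. The longest interval between tags was 742 kb.

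The share in runs of 2 or more was 77.6% with 5 kb bins and 78.1% with plus-strand tags. The flanks were at 0.471 times the chromosome median in the nearest bin, 1.00 in bins 11 to 20, 1.00 beside long runs and 0.850 beside single bins. The share of flanking bins under the limit was 20.0% with all tags, 5.43% at 0.25 times the median, and, with distances from runs of that length alone, 19.7% beside long runs and 22.4% beside single bins, against 17.6% and 4.74% of all occupied bins in the first 2 of these. Empty bins within 1 Mb of an end were 1.71% and within 5 Mb 8.85%, against 1.56% and 7.82% of all bins. Repeated tags were 10.81% in the nearest bins and 11.06% beside long runs. The strand shares of tags that bound intervals of 50 kb or more moved to 48.1% and 51.6% with midpoints and to 52.7% and 48.3% with 3′ ends, both added later. Chromosome 12 stayed highest with 20 kb bins (6.97%) and for long runs (5.96%), and chromosome 11 stayed lowest (2.51% and 1.99%). By observed over expected, chromosome 10 was highest (32020) and chromosome 7 lowest (14.0). No paired analysis was possible because only 1 library was analysed. Depth limits single empty bins where few tags surround them.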
